A study of Glycine max with 12 samples.

Results

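The combination of heat and water deficit (WD + HS) was compared with control conditions (CT) in whole closed flowers of soybean (Glycine max, cultivar Magellan). The comparison was defined by the treatment label, and it took the 3 WD + HS libraries and the 3 CT libraries, which are 6 of the 12 RNA-seq libraries of the study. CT plants were well watered at a day temperature of 28°C. WD + HS plants received 30% of the water available for transpiration and were heated daily from 28°C to a day temperature of 38°C, and both treatments lasted 10 d from the start of flowering. The other 6 libraries came from plants under water deficit alone at 28°C (WD) or heat alone, with the same day temperature of 38°C and full water (HS), 3 libraries each, and they enter here where the combination is set beside each stress. Every library was made from a pool of about 30 to 40 flowers from 8 to 10 plants, so that the spread between libraries is the spread between pools. Treatments were given in growth chambers, and an effect of a chamber cannot be told apart from that of the treatment run in it.

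Libraries of the comparison held 14238012 to 22415845 counted reads. Log-scale expression correlated at 0.969 to 0.976 among the CT libraries and at 0.970 to 0.974 among the WD + HS libraries, against 0.923 to 0.929 between the groups. Flower tissue was checked roughly with genes described as MADS-box factors, a family of which only some members specify floral organs. The descriptions here do not say which genes do so, and the sum does not prove flower identity. The 7 MADS-box genes tested summed to 49.5 to 58.5 CPM (reads of a gene scaled to the size of its library) in the CT libraries and 38.4 to 45.7 in the WD + HS libraries. Genes described as photosynthetic, markers of green tissue, summed to 91.9 to 128 CPM under CT and 119 to 175 CPM under WD + HS. This sum joins opposite changes, as 4 of 10 members rose and 2 fell. A light-harvesting gene fell from a mean of 21.5 to 7.66 CPM, and rubisco activase rose from 7.79 to 23.1 CPM. The RNA came from whole flowers, in which fewer cells of a type and less RNA per cell cannot be told apart.

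Plants meet high temperature with heat shock transcription factors, which switch on chaperones that hold damaged proteins in solution or refold them. Water deficit raises abscisic acid (ABA), a hormone that closes stomata and induces protective proteins and soluble sugars. Male tissues of the flower, the tapetum and the pollen, are known as the most heat-sensitive part of plant reproduction. When the stresses coincide, stomatal closure saves water while opening cools the organ, so the treatments call for opposite responses.

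Of 55897 genes in the count table, 38410 had enough reads to be tested, and 14135 of them (36.8%) differed between WD + HS and CT when edgeR's quasi-likelihood test was read at an adjusted p of 0.05. The standard error of a log2 fold change is marked SE. WD + HS was higher for 6808 genes (17.7%) and lower for 7327 genes (19.1%). The CT and WD + HS libraries did not overlap for 48.4% of all genes tested, so that a lack of overlap was common. The median change was 0.59 on the log2 scale among genes that rose and 0.75 in size among genes that fell. Falls were the larger class among strong changes. A change of at least 2-fold was found for 4001 genes (10.4%), of which 1331 (3.47%) were higher and 2670 (6.95%) lower, and at least 8-fold 111 were higher and 233 lower. The median log2 fold change of all genes tested was 0.006. Libraries CT replicates 1 and 2, WD replicate 3 and WD + HS replicate 3 stood apart in the FPKM of non-coding RNA entries, which the count table does not hold (summed FPKM of 60428, 111918, 41529 and 115818, against 4307 to 11625 in the others). Without these 4 libraries, 6696 genes were called, 2999 higher and 3697 lower, from 1 CT and 2 WD + HS libraries. For comparison, and sharing the same CT libraries, 31.8% of the genes differed under HS and 1.62% under WD.

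**Figure D1:**
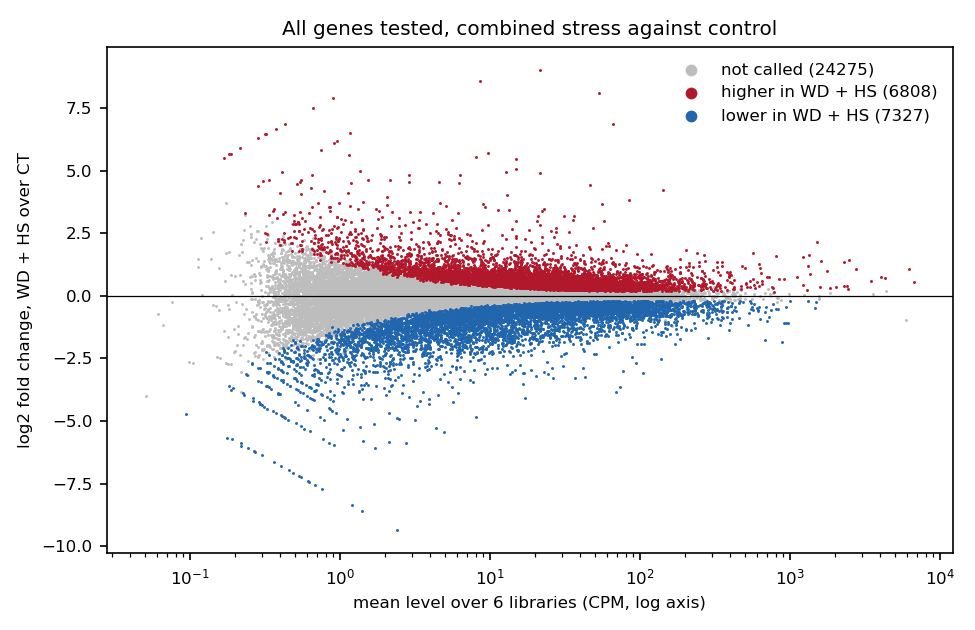
Log2 fold change of WD + HS over CT (vertical axis) against the mean level of the 6 libraries in CPM (horizontal log axis), 1 point per gene tested. The 6808 genes called higher and the 7327 called lower lie at all levels, and the diagonal rows of points at low level are genes with 0 or a few reads in one of the groups, whose fitted fold change is no bound.

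Calls were more frequent among genes with more reads. Genes with a mean of 100 CPM or more were called in 67.2% of cases (477 higher and 559 lower), those of 10 to 100 CPM in 45.3%, those of 1 to 10 CPM in 29.0% and those under 1 CPM in 13.8%. The called genes of 100 CPM or more had a median change of 0.48 on the log2 scale, and 10.2% of them changed at least 2-fold. Under 1 CPM the median of the called genes was 2.60, and all of them changed at least 2-fold.

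The genes that rose took a larger part of the transcript pool under WD + HS. As a description of genes chosen by the same test, they held 23.4%, 23.5% and 23.8% of the normalized reads in the CT libraries and 36.6%, 35.8% and 35.6% in the WD + HS libraries. The genes that fell held 32.7%, 33.5% and 32.3% under CT and 21.6%, 21.5% and 21.2% under WD + HS. By chromosome, the share of tested genes called ran from 16.3% to 19.7% for higher and 17.5% to 20.9% for lower.

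Descriptions of genes were at hand for 2420 of the genes tested, from the authors' lists of transcripts that changed under WD or HS. Those lists were drawn from the same CT, WD and HS libraries and hold mostly genes higher under heat. Calls under HS or WD were thus partly fixed by that choice, which also tilts the tests of WD + HS against HS. The described genes are therefore not a neutral sample. Of them, 68.3% were called, with 49.0% higher and 19.4% lower under WD + HS, with a median log2 fold change of 0.66, and the gene groups that follow are set beside these shares. Their direction is not independent evidence, because the lists were chosen on these samples.

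Chaperones of the small heat shock protein family, which bind unfolding proteins without using ATP, gave the largest rises. Of 43 members tested 37 rose, 30 of them at least 2-fold, 0 fell in edgeR (0 also at an unadjusted p under 0.05 and in DESeq2), and the median log2 fold change was 1.98. Together they held 662 to 922 CPM in the CT libraries and 2032 to 2548 CPM in the WD + HS libraries. GLYMA_10G176400, described as an HSP20-like chaperone, had 0.521, 0.362 and 0.242 CPM in the CT libraries and between 100 and 116 CPM in the 3 WD + HS libraries. The log2 fold change was 8.13 (± 0.18 SE, edgeR adjusted p = 1.67e-17).

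GLYMA_14G063800, another HSP20-like gene, had 1.95, 0.453 and 1.21 CPM under CT and 141, 121 and 132 CPM under WD + HS. It rose by 6.86 on the log2 scale (± 0.23 SE, edgeR adjusted p = 1.71e-14). Its level in the 3 HS libraries was 43.2, 36.8 and 30.7 CPM, lower than under the combination by 1.83 on the log2 scale (edgeR adjusted p = 8.47e-08). GLYMA_07G200500 had at most 3 reads in any CT library, and 39.5, 37.3 and 51.2 CPM under WD + HS. Their mean of 42.7 CPM was 218-fold the level that 3 reads give in the shallowest CT library. GLYMA_14G063700, whose number neighbours that of GLYMA_14G063800, has no description here and was likewise near 0 under CT. It had 19.2, 13.6 and 18.2 CPM under WD + HS, and their mean of 17.0 CPM was 87.1-fold that level of 3 reads.

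Most small heat shock proteins were nevertheless lower under the combination than under heat alone. In the direct test against HS, which calls 3.21% of all genes higher and 5.94% lower (6.74% and 18.9% of the described genes), 28 of the 43 members were lower and 3 were higher. Their median against CT was 3.10 under HS, where all 43 were called higher, and -0.39 under WD. The calls under HS are not independent, because the members are described through the authors' lists of genes changed under WD or HS. Choosing genes for high HS libraries also favours lower values in the direct test against HS. HS called 15.9% of all genes and 56.2% of the described genes higher. GLYMA_13G176300 shows the pattern, with 116, 131 and 144 CPM under CT, 674, 657 and 570 CPM under HS and 418, 359 and 444 CPM under WD + HS. Heated libraries of both kinds lay above CT, and the combination lay between them without overlap.

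**Figure D2:**
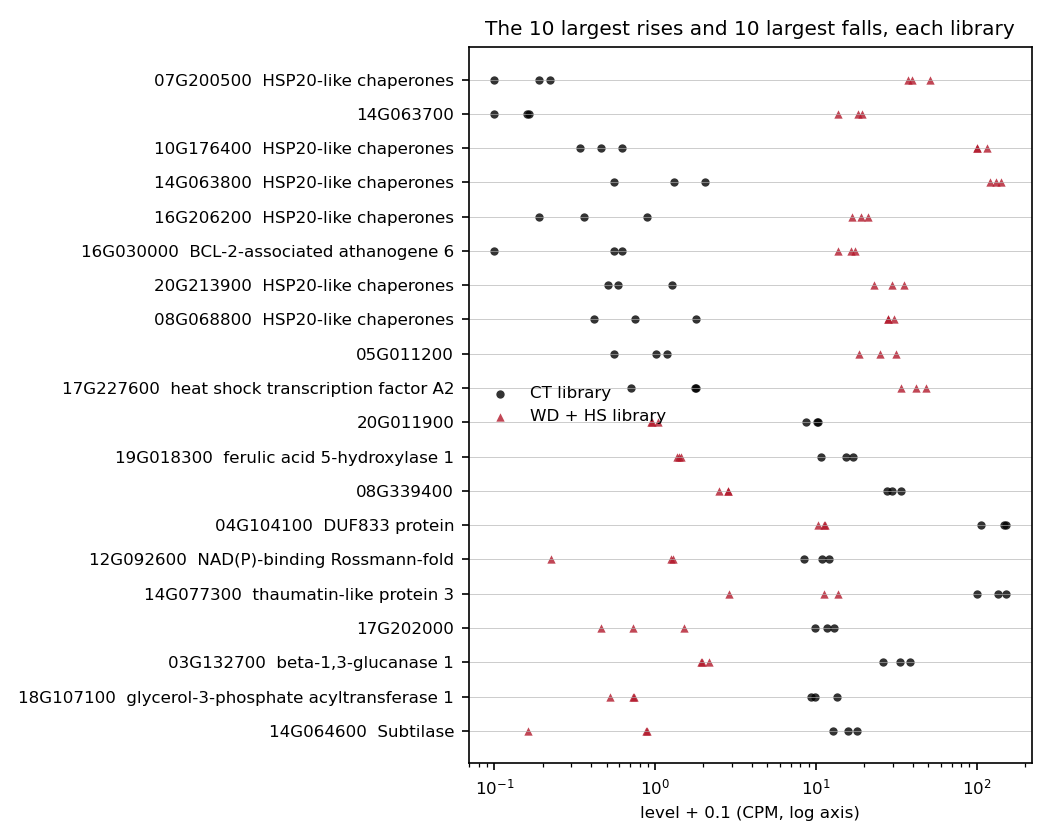
Level plus 0.1 in CPM (log axis) in each CT library (circles) and WD + HS library (triangles) for the 10 strongest rises and 10 strongest falls of called genes that averaged 5 CPM or more and did not overlap between the groups. The triangles of GLYMA_10G176400 lie at 100 to 116 CPM and its circles at 0.242 to 0.521 CPM before the offset.

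Large chaperones, which use ATP to refold or disaggregate proteins, and their helpers went both ways. Of 42 tested, 22 rose and 9 fell, with a median log2 fold change of 0.69, shares and a median close to those of all described genes. GLYMA_17G072400, described as heat shock protein 70B, had 10.7, 8.74 and 13.6 CPM under CT and 178, 145 and 152 CPM under WD + HS. It rose in every library, by 3.86 on the log2 scale (± 0.13 SE, edgeR adjusted p = 1.71e-14). GLYMA_08G242100, described as casein lytic proteinase B3, a disaggregase of the chloroplast in Arabidopsis, rose from a mean of 23.8 to 94.0 CPM.

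Co-chaperones of the BAG type were among the genes that rose. GLYMA_16G030000, described as BCL-2-associated athanogene 6, had 0.521, 0.453 and 0 CPM under CT and 13.6, 16.4 and 17.4 CPM under WD + HS (log2 fold change 5.54 ± 0.34 SE, edgeR adjusted p = 1.24e-10). Its partner of the same description, GLYMA_07G061500, rose from a mean of 1.36 to 16.6 CPM and stood at 51.4 CPM under HS. In the opposite direction, GLYMA_18G289100, described as heat shock cognate protein 70-1 and named after its values were seen, fell from a mean of 137 to 17.2 CPM, a log2 fold change of -2.99 (edgeR adjusted p = 7.95e-09). Against HS, 25 of the 42 large chaperones were lower under the combination and 0 were higher in edgeR, with 1 at an unadjusted p under 0.05 and 0 in DESeq2. That test called 18.9% of the described genes lower and 6.74% higher. These members too come from lists chosen partly on the HS libraries.

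Heat shock transcription factors bind the promoters of chaperone genes. Of 15 tested, 7 rose, 3 fell and 5 were not called, shares near the 49.0% higher and 19.4% lower of the described genes. GLYMA_17G227600, described as heat shock transcription factor A2, had 1.69, 1.68 and 0.606 CPM under CT and 42.0, 33.7 and 48.4 CPM under WD + HS, which is a change of 4.93 on the log2 scale (± 0.23 SE, edgeR adjusted p = 3.51e-12). Another gene of the same description, GLYMA_04G052000, moved the other way, from 36.2, 48.2 and 58.4 CPM to 16.0, 17.6 and 17.9 CPM. It fell by 1.47 on the log2 scale (edgeR adjusted p = 1.12e-05), and the groups did not overlap. Members of this family share sequence, and how the counting treated reads that fit several copies is not given in the sources used here.

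Single genes of ABA synthesis and of ABA breakdown rose strongly, while others of the same families did not. Of 17 genes of ABA synthesis, breakdown and signalling, 8 rose, a share near the 49.0% of the described genes, 2 fell and 7 were not called, and their summed level went from 151 to 162 CPM under CT to 413 to 437 CPM under WD + HS. GLYMA_08G176300, described as nine-cis-epoxycarotenoid dioxygenase 3 (NCED3), an enzyme at the committed step of ABA synthesis, had 3.97, 4.17 and 3.58 CPM under CT and 39.6, 46.8 and 36.1 CPM under WD + HS. The groups were far apart, with a log2 fold change of 3.38 (± 0.13 SE, edgeR adjusted p = 2.88e-13). It held 8.18 to 8.55 CPM under HS and 13.0 to 13.6 CPM under WD, so that the combination stood above both. GLYMA_08G096200, described as nine-cis-epoxycarotenoid dioxygenase 5, was not called, with means of 39.6 CPM under CT and 40.0 CPM under WD + HS and libraries that overlapped (edgeR adjusted p = 0.943).

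Breakdown of ABA begins with 8'-hydroxylases, cytochromes P450 of the CYP707A type. GLYMA_07G212700 of that type had 6.71, 7.65 and 7.09 CPM under CT and 57.9, 62.3 and 76.1 CPM under WD + HS (log2 fold change 3.19 ± 0.13 SE, edgeR adjusted p = 2.88e-13). GLYMA_02G132200 rose from a mean of 31.7 to 129 CPM. GLYMA_01G153300 of the same type fell from a mean of 2.79 to 0.942 CPM (edgeR adjusted p = 0.00456), a call that was lost without the 4 libraries high in non-coding RNA (edgeR adjusted p = 0.0838). Unlike NCED3, GLYMA_07G212700 and GLYMA_02G132200 held a level under HS (means of 78.6 and 136 CPM) that was not called different from that under WD + HS (adjusted p = 0.135 and 0.753 in edgeR). A gene that ABA induces in Arabidopsis, GLYMA_14G162100, described as highly ABA-induced PP2C gene 3, rose from 3.13, 3.89 and 3.27 CPM to 9.87, 15.4 and 11.3 CPM, while the HS libraries had 1.19, 1.55 and 2.95 CPM. The log2 fold change against CT was 1.82 (edgeR adjusted p = 1.09e-05). Under WD the mean of this gene was 8.81 CPM, and WD + HS was not called different from WD (edgeR adjusted p = 0.154).

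**Figure D3:**
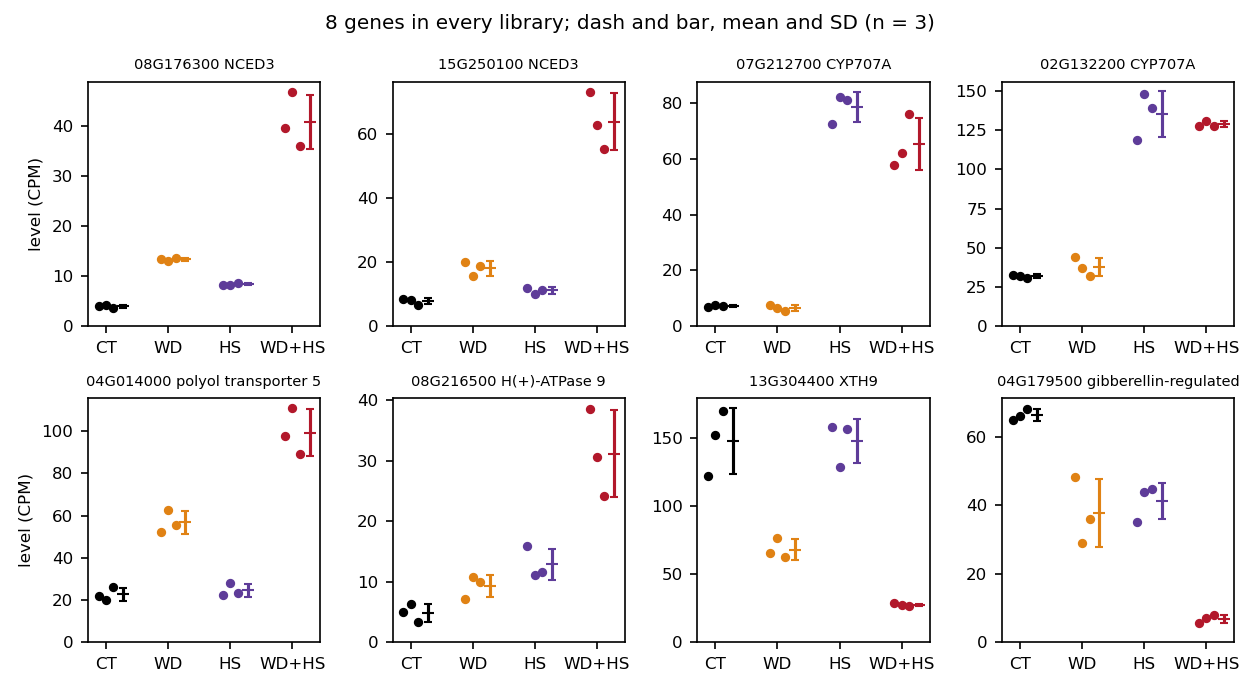
Level in CPM of 8 genes in every library of the 4 groups, with the mean and SD of 3 libraries drawn beside the points. NCED3 genes, the polyol transporter and H(+)-ATPase 9 are highest under WD + HS, the CYP707A genes are high in both heated groups, and XTH9 and the gibberellin-regulated gene are lowest under WD + HS.

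Genes of osmotic protection and sugar handling had shares near those of the described genes as a whole, with marked rises of single members. Of 22 late embryogenesis and osmotic protection genes, 11 rose and 6 fell, with a median of 0.71 against 0.66 for all described genes. GLYMA_06G179200, a raffinose synthase, which makes a sugar that shields membranes and proteins from drying, rose from a mean of 1.97 to 20.7 CPM. GLYMA_05G003900 of the same description had 19.6, 17.5 and 19.6 CPM under CT and 73.4, 73.2 and 71.6 CPM under WD + HS, against a mean of 23.7 CPM under HS. It rose by 1.95 on the log2 scale (± 0.10 SE, edgeR adjusted p = 1.04e-11), and these copies thus differed in how the level under heat alone compared with the combination. Galactinol synthase 1 (GLYMA_20G094500), the enzyme ahead of raffinose synthase, rose from a mean of 14.6 to 60.3 CPM, and a dehydrin (GLYMA_17G187600) rose from 32.1 to 78.1 CPM.

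Among 32 sugar transport and sucrose metabolism genes, 14 rose, 6 fell and 12 were not called, with a median of 0.52. GLYMA_04G014000, a polyol and monosaccharide transporter, had 21.9, 20.2 and 26.1 CPM under CT and 97.6, 111 and 88.9 CPM under WD + HS (log2 fold change 2.13 ± 0.11 SE, edgeR adjusted p = 2.03e-11). Its mean was 24.6 CPM under HS and 56.7 CPM under WD, so it was high where water was short. Enzymes that split and build sucrose both rose, sucrose synthase 3 (GLYMA_03G216300) from a mean of 12.4 to 46.1 CPM and sucrose phosphate synthase 1F (GLYMA_17G109700) from 139 to 315 CPM. GLYMA_19G227300, described as an invertase and named after its values were seen, fell from a mean of 4.83 CPM under CT to 0 reads in every WD + HS library, at least 22.8-fold lower than under CT when set against the level of 3 reads in the shallowest WD + HS library.

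Water channels and the pumps and ion channels listed with them went both ways: 10 of 25 rose, 6 fell and 9 were not called. Among the described genes 49.0% rose and 19.4% fell. The list was drawn by description, and RNA of whole flowers does not place these genes in guard cells. GLYMA_20G101400, described as aluminum-activated malate transporter 12, fell by 1.12 on the log2 scale (edgeR adjusted p = 6.72e-05). Other genes of that description were not called. H(+)-ATPases of the plasma membrane, which power stomatal opening and growth, showed opposite changes between members. GLYMA_08G216500 (H(+)-ATPase 9) had 4.95, 6.38 and 3.39 CPM under CT and 38.6, 30.7 and 24.2 CPM under WD + HS, a rise of 2.65 on the log2 scale (± 0.21 SE, edgeR adjusted p = 7.77e-09). GLYMA_17G103700 (H(+)-ATPase 8) fell from 35.1, 30.7 and 27.1 CPM to 6.87, 10.9 and 10.2 CPM, a log2 fold change of -1.74 (edgeR adjusted p = 2.35e-06). Its companion GLYMA_13G156000 fell from a mean of 38.4 to 15.0 CPM, and neither H(+)-ATPase 8 gene overlapped between groups. The call of GLYMA_13G156000 was lost without the 4 libraries high in non-coding RNA (log2 fold change -1.04, edgeR adjusted p = 0.0972).

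Plasma membrane water channels also went both ways, but most of those called rose. GLYMA_04G003200 (plasma membrane intrinsic protein 3) had 74.9, 84.7 and 91.6 CPM under CT and 37.4, 27.0 and 31.0 CPM under WD + HS, and fell by 1.39 on the log2 scale (± 0.12 SE, edgeR adjusted p = 3.1e-08). GLYMA_13G325900 (plasma membrane intrinsic protein 2) rose from a mean of 85.8 to 151 CPM. The other called genes described as plasma membrane intrinsic proteins rose too, by 0.54 to 1.06 on the log2 scale. The vacuolar channel gene GLYMA_11G143100 (tonoplast intrinsic protein 1;3) rose from a mean of 1.60 to 10.2 CPM, and an outward potassium channel, GLYMA_14G014100, from 0.435 to 3.09 CPM. Other genes described as tonoplast intrinsic protein 1;3 fell. GLYMA_10G290600 went from a mean of 3.82 to 1.56 CPM (edgeR adjusted p = 0.00604, and 0.182 without the 4 libraries high in non-coding RNA). GLYMA_02G094700 went from 6.27 to 3.80 CPM with overlapping libraries (edgeR adjusted p = 0.0468), and its call was lost when any of CT replicate 1, CT replicate 3, WD + HS replicate 1 or WD + HS replicate 3 was left out.

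Cell wall genes were taken in separate lists for xyloglucan and for pectin. Expansins and xyloglucan enzymes, which loosen or rejoin the wall during growth, rose in 20 of 52 cases and fell in 19. A larger share fell, and a smaller share rose, than among the described genes (19.4% lower, 49.0% higher). GLYMA_13G304400 (xyloglucan endotransglucosylase/hydrolase 9) had 122, 152 and 170 CPM under CT, 158, 129 and 157 CPM under HS, 65.4, 76.7 and 62.4 CPM under WD and 28.7, 27.3 and 26.8 CPM under WD + HS. It was lowest under the combination in every library, with a log2 fold change of -2.42 against CT (± 0.12 SE, edgeR adjusted p = 4.5e-12) and of the same size against HS (edgeR adjusted p = 9.33e-11). Expansin A15 (GLYMA_07G229000) instead rose from a mean of 16.5 to 55.1 CPM.

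The pectin list was mostly lower. It was drawn by description, and holds enzymes that soften walls in anthers, pollen tubes and separating organs together with genes described as inhibitors of such enzymes. Of 36 tested, 23 fell and 6 rose, with a median of -1.46, beside 19.4% lower and 49.0% higher among the described genes. Their summed level went from 808 to 882 CPM down to 469 to 490 CPM. GLYMA_01G042700, a pectate lyase, had 48.6, 53.3 and 41.3 CPM under CT and 5.99, 4.59 and 4.07 CPM under WD + HS. The fall was 3.29 on the log2 scale (± 0.28 SE, edgeR adjusted p = 1.19e-08). Polygalacturonase inhibiting protein 1 (GLYMA_15G209300), an inhibitor in the list and not an enzyme, fell from a mean of 260 to 91.6 CPM. This fall of 169 CPM is a large part of that in the summed level, which therefore does not measure enzymes alone.

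The list for anther and pollen held 4 genes, all described as arabinogalactan protein 14, a description that names no tissue. All 4 fell, with log2 fold changes of -0.80 to -2.20. GLYMA_16G153600 had 15.8, 24.0 and 21.3 CPM under CT and 4.25, 5.02 and 4.13 CPM under WD + HS (edgeR adjusted p = 7.25e-09). The 4 genes also fell under WD in edgeR and 0 fell under HS (2 were lower at an unadjusted p under 0.05, and 1 in DESeq2), where 1 was called higher. WD called 0.682% of all genes and 6.57% of the described genes lower, and HS 16.0% and 13.1%. Of 7 MADS-box genes 4 fell and 0 rose in edgeR (1 was higher at an unadjusted p under 0.05, and 0 in DESeq2), while under HS 6 were lower. Without the 4 libraries named above 1 MADS-box gene was called. GLYMA_10G240900 of the MADS-box family fell from a mean of 10.6 to 5.03 CPM. Its mean under HS was 2.07 CPM, lower than under the combination by 1.27 on the log2 scale (edgeR adjusted p = 0.0118). In the direct test against HS, 3 of the 7 were higher under WD + HS and 0 lower, where 6.74% of the described genes were higher. GLYMA_20G153700 of the same description was not called against CT, with means of 20.0 and 17.2 CPM, and had 5.45 CPM under HS.

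Lipid transfer and wax genes, a list drawn by description, fell in 26 of 46 cases and rose in 11, with a median of -1.12. Among the described genes 19.4% fell and 49.0% rose. The summed level of the list nevertheless rose, from 1249.9 to 1315.8 CPM under CT to 1401.8 to 1498.5 CPM under WD + HS. GLYMA_18G107100, described as glycerol-3-phosphate acyltransferase 1, a gene of tapetum and pollen development in Arabidopsis, was named for the size of its fall and not through this list. It had 9.71, 13.4 and 9.27 CPM under CT and 0.624, 0.636 and 0.425 CPM under WD + HS. It fell by 4.26 on the log2 scale (± 0.27 SE, edgeR adjusted p = 1.95e-10) and was also below HS, by 1.49 (edgeR adjusted p = 0.00267). GLYMA_18G294200, a lipid-transfer protein, fell from a mean of 270 to 71.5 CPM, close to its 68.7 CPM under HS. In the other direction fatty acid desaturase 2 (GLYMA_03G144500), which adds a double bond to membrane and oil lipids, rose from a mean of 268 to 873 CPM.

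**Figure D4:**
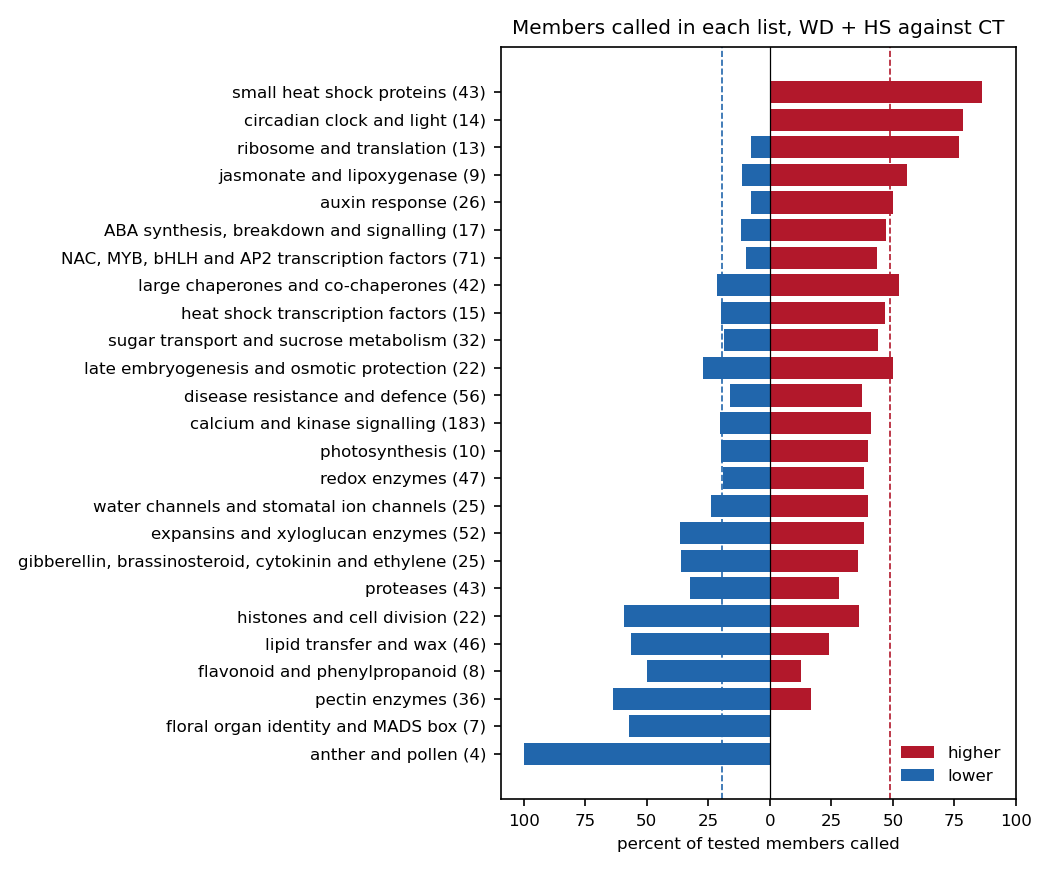
Percentage of the tested members of each of 25 gene lists called lower (left) or higher (right) in WD + HS against CT, with the number tested in brackets and dashed lines at the shares among all described genes (49.0% higher, 19.4% lower). Small heat shock proteins have 37 of 43 members higher, and the list named pectin enzymes, which also holds inhibitors, 23 of 36 lower.

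Defence and cell wall hydrolases of the apoplast supplied several of the strongest falls. GLYMA_14G064600, a subtilase, had 15.8, 12.6 and 17.9 CPM under CT and 0.0624, 0.777 and 0.789 CPM under WD + HS, with a log2 change of -4.83 (± 0.42 SE, edgeR adjusted p = 1.92e-08). GLYMA_03G132700 (beta-1,3-glucanase 1) went from 25.9, 33.2 and 38.2 CPM to 1.87, 1.84 and 2.06 CPM. Thaumatin-like protein 3 (GLYMA_14G077300) fell from a mean of 130 CPM to 11.2, 13.7 and 2.79 CPM, with WD + HS replicate 3 the lowest. The rule that named these genes required that the groups did not overlap. Osmotin 34 (GLYMA_05G204600) and pathogenesis-related 4 (GLYMA_19G245400) fell as well, from means of 77.9 to 8.28 CPM and of 40.7 to 4.99 CPM. Over the whole list of 56 disease resistance and defence genes, 21 rose and 9 fell, with a median of 0.48. Among the described genes 49.0% rose and 19.4% fell. Fewer genes of the list were called without the 4 libraries high in non-coding RNA.

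Growth hormone genes had no common direction. Of 25 gibberellin, brassinosteroid, cytokinin and ethylene genes 9 rose and 9 fell, beside 49.0% higher and 19.4% lower among the described genes. GLYMA_04G179500, a gibberellin-regulated gene, had 64.9, 66.1 and 68.2 CPM under CT and 5.62, 7.06 and 8.01 CPM under WD + HS, a fall of 3.27 on the log2 scale (± 0.16 SE, edgeR adjusted p = 7.27e-12). Its means of 41.3 CPM under HS and 37.7 CPM under WD lay between. The ethylene-forming enzyme GLYMA_15G112700, which makes the last step to the hormone, fell from a mean of 281 to 86.1 CPM. Auxin response genes rose in 13 of 26 cases, a share near the 49.0% of the described genes, and fell in 2. Of 9 jasmonate and lipoxygenase genes 5 rose, also near that share, and 1 fell. Called auxin genes numbered 8 instead of 15 without the 4 libraries high in non-coding RNA.

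Histone and cell division genes fell in 13 of 22 cases and rose in 8, with a median of -1.30. Among the described genes 19.4% fell and 49.0% rose. The 8 tested genes described as members of the histone superfamily, which package newly copied DNA, all fell, with log2 fold changes of -0.75 to -2.07. Translation genes went the other way, with 10 of 13 higher and 1 lower and a summed level of 321 to 330 CPM under CT and 612 to 641 CPM under WD + HS. Clock and light genes rose in 11 of 14 cases and fell in 0 in edgeR, also at an unadjusted p under 0.05 and in DESeq2. Of 71 transcription factors of the NAC, MYB, bHLH and AP2 families 31 rose and 7 fell, and of 183 calcium and kinase signalling genes 75 rose and 37 fell. In both lists the share that rose was below the 49.0% of the described genes. Without the 4 libraries high in non-coding RNA, fewer members were called in both directions together, 5 instead of 11 in the clock and light list, 6 instead of 11 in translation, 24 instead of 38 among these transcription factors and 64 instead of 112 in calcium and kinase signalling.

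Redox enzymes rose in 18 of 47 cases and fell in 9, against 49.0% higher and 19.4% lower among the described genes. Glutathione S-transferase TAU 19 (GLYMA_15G251600), which detoxifies reactive products, rose from a mean of 112 to 366 CPM. Proteases were divided, with 12 of 43 higher and 14 lower. Flavonoid and phenylpropanoid genes fell in 4 of 8 cases and rose in 1. GLYMA_06G110600 (flavonol synthase 1) went from 18.0, 20.6 and 22.6 CPM to 4.81, 8.19 and 6.80 CPM, a log2 fold change of -1.64 (edgeR adjusted p = 0.000106), while its mean under HS was 22.1 CPM. Photosynthesis genes rose in 4 of 10 cases and fell in 2, shares near those of the described genes.

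**Figure D5:**
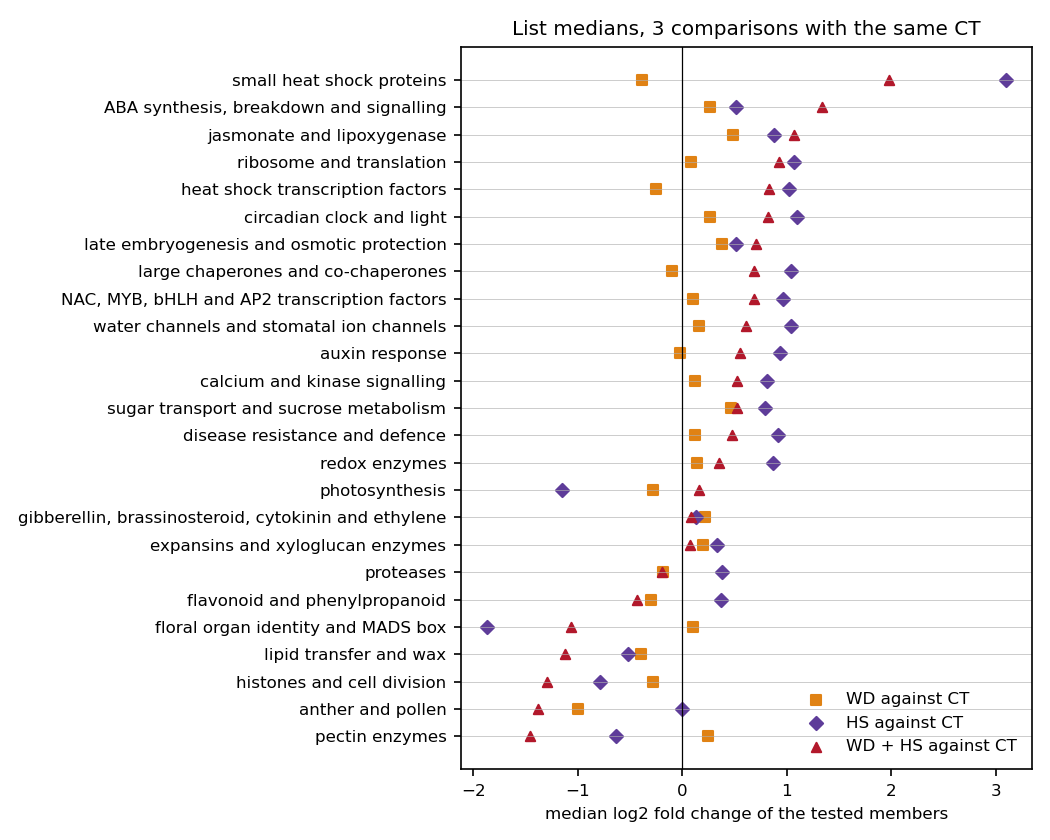
Median log2 fold change of the tested members of each gene list against CT under WD (squares), HS (diamonds) and WD + HS (triangles). The 3 comparisons share the CT libraries, and the small heat shock proteins have medians of -0.39, 3.10 and 1.98.

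The largest shifts in reads belonged to genes without a description here. GLYMA_15G026500 had 3793, 3903 and 4317 CPM under CT and 8701, 8189 and 8206 CPM under WD + HS, with a log2 change of 1.06 (± 0.08 SE, edgeR adjusted p = 4.97e-09). GLYMA_02G156800 rose from 1083, 1498 and 1408 CPM to 3915, 3369 and 3475 CPM. Neither gene overlapped between the groups. Of the falls, GLYMA_14G170600 went from 1481, 1443 and 1217 CPM to 442, 387 and 326 CPM, and GLYMA_08G200000 from a mean of 1043 to 310 CPM. Its numbered neighbour GLYMA_08G200100 rose at the same time from a mean of 1283 to 3329 CPM.

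A smaller set of genes differed from CT and from each single stress. Direct tests against HS and against WD, together with that against CT, were all passed by 2105 genes (5.48%). WD + HS was above all 3 other groups for 484 genes (1.26%) and below all 3 for 1391 genes (3.62%). Against HS alone 3515 genes differed (9.15%), and against WD alone 11592 (30.2%). The count of genes higher than under HS, 1232, was not stable, and ran from 718 to 1584 with 1 library left out. It was 788 without WD + HS replicate 1, 778 without WD + HS replicate 2, 817 without HS replicate 2 and 718 without HS replicate 3. GLYMA_08G339400, without a description, was below all 3, with 33.9, 27.7 and 29.6 CPM under CT, means of 13.9 CPM under WD and 7.49 CPM under HS, and 2.75, 2.40 and 2.73 CPM under WD + HS. The interaction of heat and water deficit was called for 1132 genes (2.95%), and for 811 of the 2105 genes (38.5%). GLYMA_08G339400 fell by 3.52 on the log2 scale against CT (± 0.15 SE, edgeR adjusted p = 1.17e-12).

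Some genes were close to absent in one of the groups. With at most 3 reads in every CT library, 47 genes were called higher, 7 of them described. With at most 3 reads in every WD + HS library, 146 genes were called lower, 30 of them described, and 22 of these had 0 reads in all 3 WD + HS libraries. At this depth 3 reads correspond to 0.195 CPM in the shallowest CT library and 0.212 CPM in the shallowest WD + HS library, and this level is a chosen floor for fold changes, since single reads below it were counted.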

How the data were processed

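RNA-seq libraries were made by the authors from pooled closed flowers, and reads were trimmed, aligned with HISAT2 2.2.1 per the labels and counted per gene. The counting program, strand setting and treatment of reads that fit several gene copies are not given in the sources used here, so copies of a gene family, overlapping and antisense genes are uncertain. The deposited counts are raw and not normalized. The deposited FPKM values were made by the authors with Cufflinks, and they were used for an alternative only. The authors tested genes with Cuffdiff, which needs alignments, and edgeR replaced it.

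Counts of all 12 libraries, assigned by the sample titles, were fitted together by edgeR 4.0.16 under R 4.3.3 (filterByExpr, minimum count 10, TMM factors, 4 groups, quasi-likelihood test). Benjamini-Hochberg adjustment ran over 38410 genes, with a threshold of 0.05. SE was taken as the size of the log2 fold change over the root of the F statistic. Levels are CPM at the TMM-scaled library size, with no correction for length. On simulated data for WD + HS against CT (37158 genes tested), 71 of 100 genes changed by 1 and 90 of 100 genes changed by 1.5 on the log2 scale were called, with 8 of 36958 unchanged genes. Only these few genes were changed, with as many rises as falls. In the real data 36.8% of the genes were called, so the simulated rates do not carry over to them.

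Alternatives were DESeq2 1.42.0, upper-quartile factors, no factors, a replicate block, filters of 1 count in total or 10 in each library, limma 3.58.1 on log2(FPKM + 1) or log2(FPKM + 0.1) where 3 libraries reached an FPKM of 1, the 6 libraries fitted alone, a 2-fold minimum and each library left out. Leaving out 4 libraries together, and the HS and WD libraries in turn, were added after the data were seen. The gene lists, the naming rules and the comparison were chosen with earlier results of these data known. Named were, by rule, called genes averaging 5 CPM or more, without overlap between the groups, with the 10 largest changes each way (8 among described genes). The rules also took the 6 largest changes in CPM each way, and in each list the 4 members with the smallest p and the one with the highest level. All heat shock factors, ABA and water or stomatal channel genes could be named, as could 6 genes each way that passed all 3 tests of WD + HS. Identifiers matched 0 of the 59048 entries of the RefSeq table, so descriptions came from the authors' supplementary lists (2464 genes) and no sequence was read.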

Additional observations from a re-analysis of the deposited data

Results flagged for a closer look

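For 12 genes that differed from CT, HS and WD alike, the effect of heat was compared between plants with and without water deficit, by the interaction in edgeR's fit of all 12 libraries, and it differed for 4 of them after Benjamini-Hochberg adjustment over all genes. Choosing genes because WD + HS differed from the other 3 groups favours such a difference, and edgeR called it for 38.5% of the 2105 genes so chosen and for 2.95% of all genes. GLYMA_20G011900 fell by 3.93 on the log2 scale with heat under water deficit and by 1.14 with heat alone, a difference of -2.79 (standard error 0.38, adjusted p = 0.000388 in edgeR). For GLYMA_17G202000 the difference was -2.62 (standard error 0.59, adjusted p = 0.0139 in edgeR). Both genes have no description here. The HSP20-like GLYMA_20G213900 rose by 6.80 with heat under water deficit and by 4.26 without it, a difference of 2.53 (standard error 0.52, adjusted p = 0.00754 in edgeR). GLYMA_14G063800, also HSP20-like, differed by 2.27 (standard error 0.44, adjusted p = 0.0049 in edgeR).

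Entries of the FPKM table that the count table does not hold, 1250 in number and non-coding RNA by their identifiers, summed to 115818 FPKM in WD + HS replicate 3. The highest CT library summed to 111918 FPKM, and the other WD + HS libraries to 4307 and 7655 FPKM. The part of these entries in the comparison of gene counts was not tested beyond leaving the libraries out.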

How the results depend on the processing

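The 62 named genes were recomputed under 1043 alternative values against CT, and 1022 kept their direction and side of the threshold. The calls of GLYMA_10G240900, GLYMA_13G156000, GLYMA_01G153300 and GLYMA_10G290600 were lost without the 4 libraries high in non-coding RNA (log2 fold changes of -1.0, -1.04, -1.69 and -1.03, adjusted p of 0.165, 0.0972, 0.0838 and 0.182 in edgeR). That of GLYMA_02G094700 was lost in 9 alternatives, and GLYMA_13G325900 is below the 2-fold minimum by construction. GLYMA_08G096200, not called at 0.01, changed sign with upper-quartile factors (-0.01), without factors and with the filters of 1 count in total and 10 in every library (each -0.0), and ran from -0.09 to 0.11 with 1 library left out. Leaving out those 4 libraries, which removes samples, gave 6696 changed genes against CT (2999 higher, 3697 lower) and 7646 against WD (3334 higher). The lone CT library is then assumed to vary like the other groups. In the lists it gave 8 auxin, 1 MADS-box, 5 clock, 14 defence, 24 transcription factor, 64 calcium and kinase and 6 translation genes, and pool differences of 9.68 points for rises and -8.22 for falls.

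The 2-fold minimum left 4001 genes against CT (1331 higher, 2670 lower), 1402 against HS (165 higher, 1237 lower) and 3236 against WD (1015 higher, 2221 lower). In the lists it left 19 large chaperones, 8 auxin, 6 clock, 17 protease, 19 defence, 57 calcium and kinase, 12 histone and 5 translation genes. A filter of 10 counts in every library left 21 small heat shock proteins and 1 MADS-box gene, since it tests fewer genes, and a filter of 1 count in total called 8 flavonoid genes. With limma on log2(FPKM + 1), 1792 genes were changed 2-fold (574 higher, 1218 lower), 502 were higher than under HS and 3448 higher than under WD, and with log2(FPKM + 0.1) 488 and 3380; the cause was not tested.

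With 1 library left out, the genes higher than under HS ran from 718 to 1584, the pool difference of genes that rose from 11.5 to 12.4 points and that of genes that fell from -11.6 to -10.5 points. The replicate numbers did not pair the libraries (correlations of same-numbered deviations of -0.035, -0.029 and -0.1). The fit with a replicate block called 13900 genes against CT, 6666 higher and 7234 lower, and moved no other count by over 1.5 times. Each group is 3 pools, and genes with few reads are called only at large changes.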

Other observations

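Some described gene families outside the lists were mostly higher, beside 49.0% higher, 19.4% lower and a median log2 fold change of 0.66 for all described genes. Of 30 tested genes described as pentatricopeptide repeat (PPR) proteins, which process RNA in organelles, 20 were higher under WD + HS and 0 lower in edgeR, with a median log2 fold change of 0.85. All 7 Octicosapeptide/Phox/Bem1p family genes rose, by 0.89 to 1.63. Families were taken by identical description and were picked from many after their values were known, so the counts are a description. The descriptions come from lists chosen on these same samples, so the direction is not independent evidence. The count of 0 was also 0 at an unadjusted p under 0.05 and in DESeq2.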
